A study of Mus musculus with 11 samples.

Results

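The 10 genes described here encode the Pim kinases (Pim1, Pim2 and Pim3) and proteins that carry or restrain signalling through Jak and Stat proteins (Socs1, Socs2, Socs3, Cish, Sh2b3, Jak2 and Stat5a). They were taken by gene symbol from a list, 10 of the 24064 genes in the files of the scatter-gated libraries, and all 10 also had a row among the 23420 genes of the unfractionated libraries. The series profiled haematopoietic stem cells (HSCs) sorted from the liver of C57BL/6 mice on postnatal day 0, all of them wild-type. The sort kept CD150+ and CD48- cells among Sca1+ cKit+ Lineage- cells, and 100 to 200 cells went into each library by the full-length Smart-seq2 method. FSC-A High HSCs (4 libraries) and FSC-A Low HSCs (3 libraries) were gated by forward scatter area, a flow cytometry reading that is commonly taken as a measure of cell size, and 4 further libraries carry no scatter gate in their labels. All groups share genotype, strain, tissue and age. The labels give neither the scatter limits nor the number of animals behind a library, so a p-value here measures library-to-library spread only, and that spread may be technical.

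Many cytokines that act on HSCs bind receptors without kinase activity of their own. The receptor-bound Jak kinases phosphorylate Stat factors, which enter the nucleus and switch on target genes. Among the classical Stat5 targets are genes of the pathway's own brakes, the SOCS proteins and Cish, and genes of the Pim kinases, serine/threonine kinases that are active as soon as they are made and promote survival and growth. Sh2b3, also called Lnk, is an adaptor that binds Jak2 and holds back cytokine signalling in HSCs.

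Levels in the gated libraries are RPKM, reads scaled by transcript length and by library size. Their depth was about 65670000 to 98180000 reads each, an estimate from the smallest steps between values. The sorted cells carried the HSC markers: all 10 genes of a marker list that includes Procr, Mecom, Hlf and Kit passed the filter on low values. The summed level of that list was 248 to 354 RPKM in FSC-A High and 478 to 576 RPKM in FSC-A Low, and 5 of the 10 were lower in FSC-A High. Erythroid markers summed to 110 to 237 RPKM in FSC-A High and 69.0 to 102 RPKM in FSC-A Low, and 1 of the 2 that were tested was higher in FSC-A High. Hepatocyte markers lay at 59.6 to 75.7 and 54.4 to 78.1 RPKM, mostly from Trf, while Alb reached no more than 1.56 RPKM. Macrophage markers summed to 14.6 to 33.5 against 10.2 to 19.4 RPKM, and granulocyte markers to 103 to 148 against 100.0 to 103 RPKM, mostly from Prtn3 (97.3 to 135 against 88.3 to 95.2 RPKM). Lymphoid markers summed to 18.04 to 56.3 against 18.6 to 32.1 RPKM, nearly all from Cd79b (17.8 to 56.1 against 18.6 to 31.7 RPKM), while Cd3e, Cd3g, Il7r and Rag1 were listed at 0 in all 7 gated libraries. Megakaryocyte markers summed to 69.7 to 103 against 52.3 to 67.0 RPKM, and endothelial markers to 5.89 to 25.4 against 17.4 to 25.4 RPKM, with 1 of 2 tested lower in FSC-A High. Stellate cell markers reached at most 0.154 RPKM. The part of these shifts in the differences below was not tested. In bulk RNA of sorted cells, fewer cells of a type and less RNA per cell cannot be told apart.

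Of the 10 genes, 4 were lower in FSC-A High HSCs than in FSC-A Low HSCs: the kinase gene Pim3, the brakes Socs1 and Sh2b3, and Jak2. None was higher. All 10 had at least 1 RPKM in at least 3 libraries and entered the fit, which was limma on log2(RPKM + 1) over 10619 genes. Calls were made where the p adjusted by Benjamini-Hochberg over all tested genes was below 0.05. In that fit 27.3% of all genes were called, 11.7% lower and 15.6% higher in FSC-A High, and at an unadjusted p below 0.05 the 10 genes gave 5 lower and 0 higher, beside 18.3% of all genes lower and 20.5% higher. Their median log2 difference was -0.66, beside -0.044 over all genes tested. Of the 10 differences 9 were negative, beside 5565 of all 10619, and the signs of Cish and Socs2 changed in some alternative analyses. In 4 of the 10, the libraries of the gates did not overlap, all with FSC-A High below, beside 34.9% of all genes (16.0% with FSC-A High below).

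**Figure D1:**
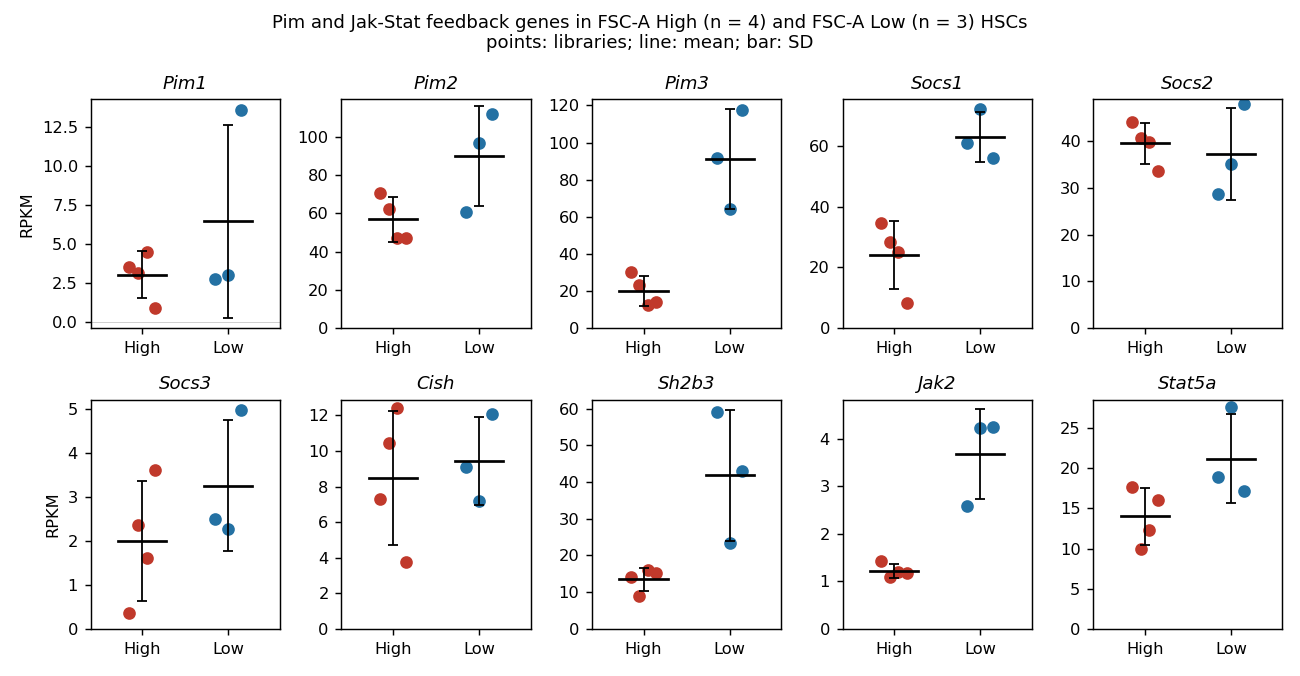
RPKM (vertical axes, each from 0) of the 10 genes in the 4 FSC-A High and 3 FSC-A Low libraries, with the mean (line) and SD (bar) of each group. The points of the gates are apart for Pim3, Socs1, Sh2b3 and Jak2, and they overlap for the other 6 genes.

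Of the Pim kinase genes, Pim3 was lower in FSC-A High, and Pim1 and Pim2 did not pass. Pim3 stood at 30.1, 23.2, 12.4 and 14.2 RPKM in the FSC-A High libraries and at 91.6, 64.2 and 118 RPKM in the FSC-A Low libraries. The lowest FSC-A Low library was well above the highest FSC-A High library. The group means were 20.0 ± 8.23 (SD, n = 4) and 91.2 ± 26.8 RPKM (SD, n = 3), a 4.57-fold ratio, and the log2 difference was -2.18 (SE 0.30, limma adjusted p = 0.000232). Pim3 lies on chromosome 15, 88862194 to 88865726 on GRCm38 (mm10), and its span overlaps that of a predicted gene, Gm33049. Pim2 stood at 70.7, 62.1, 47.2 and 47.4 RPKM in FSC-A High and at 61.0, 96.8 and 112 RPKM in FSC-A Low. The first FSC-A Low library lay within the FSC-A High range. The log2 difference of Pim2 was -0.63 (95% confidence interval -1.11 to -0.15, limma adjusted p = 0.0532), just short of the threshold. It passed in 8 of 19 alternative analyses, among them without FSC-A Low replicate 1 (adjusted p = 0.0104), without FSC-A High replicate 1 (0.0322) and with the trend over transcript length and GC content removed (-0.87, adjusted p = 0.0130). Pim1, the founding member of the family, was low throughout, at 3.501, 3.13, 4.48 and 0.897 RPKM in FSC-A High and 2.73, 3.00 and 13.6 RPKM in FSC-A Low. A single FSC-A Low library carried the higher mean of that gate. The log2 difference of Pim1 was -0.69 (95% confidence interval -1.78 to 0.40, limma adjusted p = 0.340), or -0.051 without FSC-A Low replicate 3.

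Pim3 held a smaller share of the Pim transcripts in every FSC-A High library than in any FSC-A Low library. RPKM is a level per length, so the 3 genes can be set against each other. Pim3 made up 28.8%, 26.2%, 19.4% and 22.7% of the summed Pim RPKM in the FSC-A High libraries and 59.0%, 39.1% and 48.4% in the FSC-A Low libraries. The mean share was 24.3 ± 4.13% (SD, n = 4) against 48.8 ± 9.93% (SD, n = 3). Pim2 held 71.9 ± 3.59% of the sum in FSC-A High, where it was the most abundant in every library, and 48.1 ± 10.1% in FSC-A Low, where Pim3 was above Pim2 in libraries 1 and 3. The summed level of the Pim genes was 62.4 to 104 RPKM in FSC-A High and 155 to 243 RPKM in FSC-A Low. Pim1 held 1.44% to 6.99% of the sum in all 7 libraries. These shares are given as a description, without a test.

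**Figure D2:**
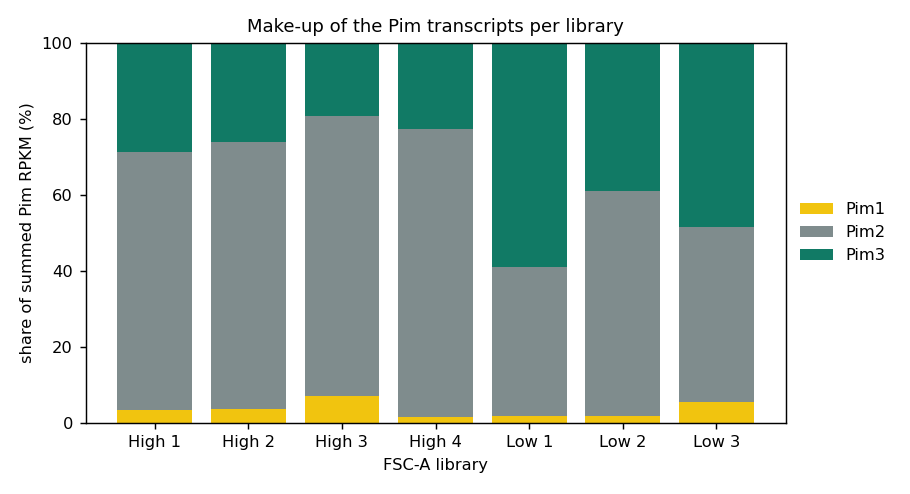
Share of Pim1, Pim2 and Pim3 (percent, vertical axis) in the summed Pim RPKM of each gated library (horizontal axis). Pim3 takes 19.4% to 28.8% of the bar in the 4 FSC-A High libraries and 39.1% to 59.0% in the 3 FSC-A Low libraries.

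Pim3 is shown with its promoter because it had the largest difference of the 10 genes. The window from 250 bases before to 30 bases after the RefSeq start site, on GRCm38.p6, is chr15:88861944-88862223 on the plus strand, with 69.0% GC in the 300-base window. It was searched for TTCNNNGAA, the palindrome that Stat5 binds (N is any base), and for TTC and GAA with 4 free bases between them, which Stat6 favours. Each reads the same on both strands. Neither was found, so no letter is in capitals.

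Pim3 promoter: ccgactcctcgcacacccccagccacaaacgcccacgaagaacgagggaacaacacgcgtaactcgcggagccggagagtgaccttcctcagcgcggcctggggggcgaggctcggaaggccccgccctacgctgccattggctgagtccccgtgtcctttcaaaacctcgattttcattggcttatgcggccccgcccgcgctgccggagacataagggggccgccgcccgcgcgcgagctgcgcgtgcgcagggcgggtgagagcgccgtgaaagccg

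Among the SOCS family, Socs1 differed between the gates and Socs2, Socs3 and Cish did not pass. Socs1, which blocks Jak kinases directly and is best known as a brake on interferon signalling, stood at 34.6, 28.4, 25.2 and 8.41 RPKM in FSC-A High. In FSC-A Low it stood at 60.9, 72.2 and 56.0 RPKM, above all FSC-A High libraries. The means were 24.2 ± 11.2 (SD, n = 4) and 63.1 ± 8.32 RPKM (SD, n = 3), a 2.61-fold ratio, and the log2 difference was -1.50 (SE 0.36, limma adjusted p = 0.00859). FSC-A High replicate 4 was the lowest, and without it the log2 difference was -1.08 (adjusted p = 0.00272). With all genes kept, low ones included, Socs1 no longer passed (limma adjusted p = 0.0816). Socs1 lies on chromosome 16, 10783808 to 10785536. Socs2, which restrains growth hormone receptor signalling and is a common Stat5 target, stood at 44.2, 40.8, 39.8 and 33.6 RPKM in FSC-A High and 28.8, 35.1 and 48.0 RPKM in FSC-A Low. The FSC-A Low libraries spanned the whole FSC-A High range. Its log2 difference was 0.11 with a 95% confidence interval from -0.34 to 0.55 (limma adjusted p = 0.736).

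Cish, which encodes the first known member of the family and is a standard readout of Stat5 activity, stood at 7.27, 10.4, 12.4 and 3.77 RPKM in FSC-A High and 9.07, 7.20 and 12.1 RPKM in FSC-A Low. Here too the gates overlapped over most of their range. The log2 difference was -0.22 (95% confidence interval -1.0 to 0.56, limma adjusted p = 0.695), and its sign was not stable, at 0.077 without FSC-A High replicate 4. Socs3, which binds receptors of the interleukin-6 type, was low, at 0.363, 2.37, 1.62 and 3.63 RPKM in FSC-A High and 2.51, 2.28 and 4.97 RPKM in FSC-A Low. The first FSC-A High library was the lowest of the 7, and the gates overlapped. The log2 difference of Socs3 was -0.58 (95% confidence interval -1.51 to 0.34, limma adjusted p = 0.341). For Socs2, Cish and Socs3 a missed threshold does not show equal levels, and the intervals of Cish and Socs3 include a 2-fold difference.

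The promoters of Cish and Socs3 are shown because they hold the Stat5 palindrome, and that of Socs1 because Socs1 was the SOCS gene that differed. Windows were found for 9 of the 10 genes, and 2 of the 9, Cish and Socs3, held TTCNNNGAA between 250 bases before and 50 bases after the start site, beside 9.55% of 27025 genes. Cish held 2 matches, TTCCTGGAA at bases 1 to 9 and TTCTTGGAA at bases 12 to 20 counted from the start site, and 0.457% of 32851 windows held 2 or more. Socs3 held TTCTTAGAA at bases -154 to -146. None of the 9 held TTC and GAA with 4 free bases between them, a run found in 8.01% of genes. Capitals mark the matches. A match is a run of letters and not a measured binding site. The windows are chr9:107296409-107296688 on the plus strand for Cish, chr11:117969337-117969616 on the minus strand for Socs3 and chr16:10785507-10785786 on the minus strand for Socs1. Each runs from 250 bases before to 30 bases after a RefSeq start site on GRCm38.p6. The Socs3 window lies inside the span of the gene, which runs to 117970336, so its start site is not the outermost.

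Cish promoter: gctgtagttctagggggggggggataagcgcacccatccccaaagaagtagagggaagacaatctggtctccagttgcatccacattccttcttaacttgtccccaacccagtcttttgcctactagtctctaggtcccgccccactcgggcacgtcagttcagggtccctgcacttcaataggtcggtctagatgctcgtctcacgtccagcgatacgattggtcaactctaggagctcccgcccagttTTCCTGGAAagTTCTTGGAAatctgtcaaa
Socs3 promoter: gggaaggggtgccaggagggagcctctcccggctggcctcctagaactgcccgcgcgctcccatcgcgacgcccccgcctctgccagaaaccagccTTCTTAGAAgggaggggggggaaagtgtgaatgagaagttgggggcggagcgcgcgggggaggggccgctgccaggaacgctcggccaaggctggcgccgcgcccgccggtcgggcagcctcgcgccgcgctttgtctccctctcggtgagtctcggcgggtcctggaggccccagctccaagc
Socs1 promoter: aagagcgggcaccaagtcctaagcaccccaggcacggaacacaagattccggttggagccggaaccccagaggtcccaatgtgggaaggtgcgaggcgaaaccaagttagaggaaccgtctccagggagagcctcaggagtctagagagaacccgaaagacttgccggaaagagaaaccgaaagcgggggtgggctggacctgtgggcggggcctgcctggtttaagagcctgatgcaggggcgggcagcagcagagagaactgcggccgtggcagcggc

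Both genes with the palindrome were among the 6 that did not pass, and the 4 genes that were lower in FSC-A High held no match in these windows, which says nothing about sites elsewhere. The window of Sh2b3 (chr5:121836075-121836354, minus strand) also lay inside the span of its gene, which runs to 121837645. Socs2 had no window in the table and was not searched.

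The adaptor gene Sh2b3 was lower in FSC-A High. It stood at 14.0, 8.96, 16.1 and 15.1 RPKM in FSC-A High and at 59.2, 23.5 and 42.9 RPKM in FSC-A Low, so the gates did not overlap although the FSC-A Low libraries were spread widely. The means were 13.5 ± 3.17 (SD, n = 4) and 41.8 ± 17.9 RPKM (SD, n = 3), a 3.09-fold ratio, and the log2 difference was -1.49 (SE 0.30, limma adjusted p = 0.00310). Sh2b3 spans chromosome 5, 121815481 to 121837645, and the microRNA entry Mir7031 lies within this span. Jak2, a kinase bound to several cytokine receptors of blood cells, had the lowest mean RPKM of the 10 genes over the 7 gated libraries, although Socs3 was lower in FSC-A Low (3.25 against 3.69 RPKM). It stood at 1.42, 1.10, 1.19 and 1.17 RPKM in FSC-A High and 2.60, 4.23 and 4.24 RPKM in FSC-A Low. Every FSC-A Low library was above every FSC-A High library. The log2 difference of Jak2 (chromosome 19, 29251803 to 29313095) was -1.06 (SE 0.31, limma adjusted p = 0.0230) on a scale that understates the change of a gene near 1 RPKM, and the ratio of the means was 3.02-fold. This call depended on single libraries, with limma adjusted p = 0.0549 without FSC-A High replicate 2, 0.0528 without FSC-A High replicate 3, 0.0687 without FSC-A Low replicate 2 and 0.0697 without FSC-A Low replicate 3. Stat5a, one of a pair of closely related Stat5 factors, stood at 17.7, 9.98, 12.3 and 16.0 RPKM in FSC-A High and 18.9, 27.6 and 17.1 RPKM in FSC-A Low, with an overlap between 17.1 and 17.7 RPKM. Its log2 difference was -0.57 (95% confidence interval -1.14 to 0.00, limma adjusted p = 0.129).

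**Figure D3:**
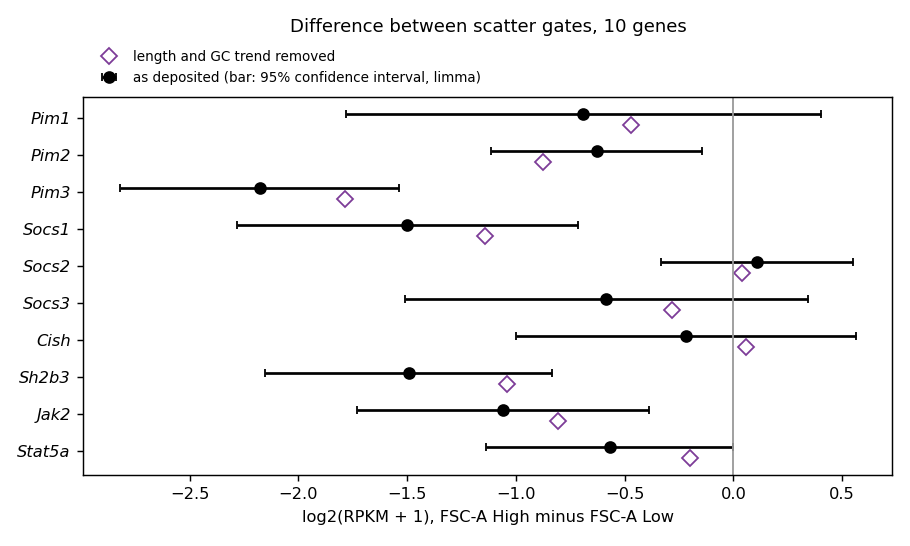
Log2 difference, FSC-A High minus FSC-A Low, on the log2(RPKM + 1) scale (horizontal axis) for the 10 genes, with the 95% confidence interval of the limma fit (filled points) and the value after removal of the length and GC trend (open diamonds). Pim3 lies lowest at -2.18, Socs1, Sh2b3 and Jak2 lie between -1.50 and -1.06, and Socs2 lies at 0.11.

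The fit was repeated after removal, within each library, of the trend over transcript length and GC content. Pim3 (-1.79, limma adjusted p = 0.000446), Sh2b3 (-1.04, adjusted p = 0.0286) and Socs1 (-1.14, adjusted p = 0.0346) were called again, Pim2 was called as well, and Jak2 was not (-0.81, adjusted p = 0.0733). That fit called 8.38% of genes lower. It used GENCODE transcript lengths, which can differ from the authors' lengths, as for Socs1 (2785 bases, more than its span on chromosome 16) and Pim2 (1113 bases). Their values in that fit are therefore approximate. Stat5a then had a log2 difference of -0.20, Socs3 of -0.28, Cish of 0.058 and Socs2 of 0.038.

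Whether genes of one role moved by different amounts was examined through 10 within-library log2 differences: the pairs among the Pim genes, among the SOCS genes, and Jak2 with Stat5a. These tests were added after the values of the genes had been seen. Pim2 minus Pim3 was 1.53 ± 0.29 (SD, n = 4) in FSC-A High and -0.02 ± 0.58 (SD, n = 3) in FSC-A Low. Socs1 minus Socs2 was -0.84 ± 0.70 against 0.77 ± 0.47, Pim1 minus Pim3 was -2.41 ± 0.77 against -3.90 ± 0.81, and Socs1 minus Cish was 1.35 ± 0.53 against 2.63 ± 0.52. In each of these 4 pairs the libraries of the gates did not overlap. Each pair holds Pim3 or Socs1, already called lower from the same values, so the pairs add no separate support. The share of all gene pairs without overlap was not counted. The exact permutation test was run in 2 ways. Run first, with the smaller tail doubled, it gave an exact p of 0.0571 for each of the 4, the least that this version can give for 4 and 3 libraries, and 0.143 adjusted over the 10 pairs. After those values were seen it was changed to the absolute difference, which gave exact p = 0.0286 for the first 3 pairs (adjusted p = 0.0953) and 0.0571 for Socs1 minus Cish (adjusted p = 0.143). No pair passed after adjustment in either version. The first version cannot reach 0.05 with 4 and 3 libraries, and the second cannot after adjustment unless most pairs are at its smallest value, so these p-values do not tell whether members moved by different amounts. Jak2 minus Stat5a, whose gates overlapped, gave exact p = 0.171 in the first version and 0.114 in the second.

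Ordered by level per length over the 7 gated libraries, the genes ran from Pim2 (mean 71.0 RPKM), Pim3 (50.5), Socs1 (40.8) and Socs2 (38.6) through Sh2b3 (25.7), Stat5a (17.1) and Cish (8.89) to Pim1 (4.47), Socs3 (2.54) and Jak2 (2.28). In FSC-A High the order began with Pim2 (56.8 ± 11.6 RPKM) and Socs2 (39.6 ± 4.43), while Socs1, Pim3, Stat5a and Sh2b3 followed within each other's spread. In FSC-A Low, Pim3 and Pim2 shared the top at 91.2 ± 26.8 and 89.9 ± 26.2 RPKM, ahead of Socs1 at 63.1 ± 8.32 RPKM. Sh2b3 and Socs2 came next in FSC-A Low, at 41.8 ± 17.9 and 37.3 ± 9.80 RPKM, which do not differ beyond their spread. Cish at 9.46 ± 2.47 RPKM lay below Stat5a at 21.2 ± 5.59 RPKM in that gate.

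Other genes of the pathway were lower in FSC-A High as well, and the count of each list is read beside the 11.7% of all genes called lower and the 15.6% called higher (18.3% and 20.5% at an unadjusted p below 0.05). Differences between the lists were not tested. Of the 9 other Jak and Stat genes, 7 were lower, none was higher and 2 did not pass with limma (7 lower and 0 higher at an unadjusted p below 0.05), with a median log2 difference of -0.997 beside -0.044 over all genes. Jak3, the kinase of receptors with the common gamma chain, stood at 39.1, 27.5, 29.6 and 34.2 RPKM in FSC-A High and 100.0, 116.6 and 78.8 RPKM in FSC-A Low (log2 difference -1.56, limma adjusted p = 0.000105). The gates were far apart for Jak3 in every library. Jak1, a kinase shared by many cytokine receptors, had a mean of 22.1 ± 2.36 RPKM (n = 4) against 45.4 ± 8.98 RPKM (n = 3), with a log2 difference of -0.997. The factor genes Stat4 (-1.12, limma adjusted p = 0.0146) and Stat3 (-0.80, adjusted p = 0.01002) were also lower, though Stat3 did not pass with the length and GC trend removed (adjusted p = 0.101), nor Stat4 without FSC-A Low replicate 1 (adjusted p = 0.0535) or with low genes kept in the fit (adjusted p = 0.0729). With that trend removed, 3 of the 9 were lower and the median was -0.63, beside 8.38% of all genes lower and 9.37% higher in that fit.

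For the receptor genes, the share called lower at an adjusted p below 0.05 was near that of all genes. Of 24 listed cytokine receptors 19 were tested: 3 were lower in FSC-A High, 1 was higher and 15 did not pass. The median log2 difference was -0.46. At an unadjusted p below 0.05, 5 were lower and 1 was higher, beside 18.3% and 20.5% of all genes. With the length and GC trend removed, 3 were lower and 0 higher, with a median of -0.21, beside 8.38% of all genes lower. Il2rg, the common gamma chain that works with Jak3, stood at 18.6, 22.3, 24.8 and 35.6 RPKM in FSC-A High and 82.6, 97.9 and 74.3 RPKM in FSC-A Low (log2 difference -1.74, limma adjusted p = 0.000133). The gates did not overlap for Il2rg, and it was called again with the length and GC trend removed. Il4ra, a subunit of the interleukin-4 receptor, was lower at -1.14. Ifnar2, a subunit of the type I interferon receptor, was higher in FSC-A High at 57.8 ± 5.13 against 39.3 ± 5.86 RPKM (0.55, limma adjusted p = 0.0313), and its difference was -0.016 with the trend removed. The call of Ifnar2 was also lost without FSC-A High replicates 1, 2 or 3 (adjusted p = 0.0511, 0.0581 and 0.0939) without FSC-A Low replicate 1 (adjusted p = 0.124), with library-total scaling (adjusted p = 0.289) and with transcripts summed (adjusted p = 0.0542).

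Of 17 tested genes for other brakes on the pathway, 5 were lower, none was higher and 12 did not pass with limma (5 lower and 0 higher at an unadjusted p below 0.05), with a median of -0.48. They included Ptprc, which encodes the phosphatase CD45, at 3.28 ± 0.17 against 15.9 ± 5.63 RPKM (log2 difference -1.93, limma adjusted p = 0.000561), and the SOCS gene Socs5 at 5.87 ± 1.53 against 21.8 ± 8.03 RPKM (-1.69, adjusted p = 0.00209). The ubiquitin ligase gene Cbl (-1.74) and the SUMO ligase gene Pias2 (-1.12) were lower too. All 4 named genes were called again with the length and GC trend removed. Cbl, 1 of the 5, was at 0.309 to 0.980 RPKM in FSC-A High and 2.68 to 8.71 RPKM in FSC-A Low. It passed the filter only through the FSC-A Low libraries, where it was high, so its call is a description only. With any FSC-A Low library left out, Cbl did not enter the fit.

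Of 13 tested Stat target genes outside the SOCS and Pim families, 4 were lower, none was higher and 9 did not pass with limma (5 lower and 0 higher at an unadjusted p below 0.05), with a median of -0.45. The transcription factor genes Cebpb (-2.94), Junb (-1.38) and Myc (-1.13) were lower, and so was Bcl3 (-1.38), which encodes a nuclear partner of NF-kappaB. With low genes kept in the fit, Myc did not pass (limma adjusted p = 0.0588). After removal of the length and GC trend, 1 of the 13 was higher and 4 were lower. Of 12 tested genes for Pim substrates, 4 were higher in FSC-A High, 3 were lower and 5 did not pass, with a median of -0.048. With the length and GC trend removed, 3 were higher and 0 were lower, with a median of 0.32. The phosphatase gene Cdc25c, which acts at entry to mitosis, stood at 9.31, 8.49, 15.9 and 13.6 RPKM in FSC-A High. In FSC-A Low it stood at 0.0215, 2.44 and 1.51 RPKM (2.59, limma adjusted p = 0.000678). Cdc25c met the filter on low values only with the FSC-A High libraries, where it was high, so its call is a description only. The cell cycle inhibitor gene Cdkn1a (1.55) and the cell death gene Bad (1.02) were higher, and the translation factor gene Eif4b was lower (-0.89). Bad and Eif4b did not pass with the length and GC trend removed (adjusted p = 0.0777 and 0.0665), nor Eif4b with the replicate block (adjusted p = 0.0508).

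**Figure D4:**
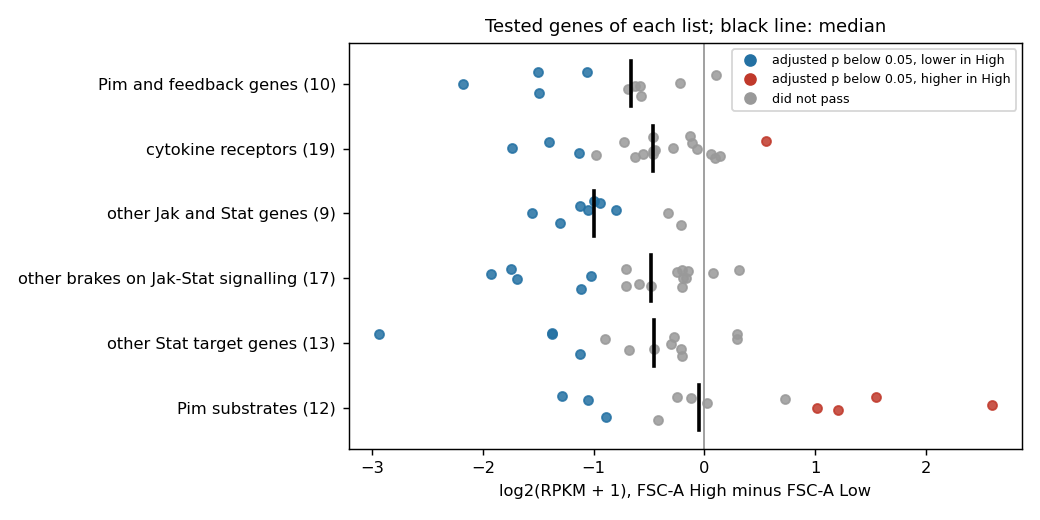
Log2 difference, FSC-A High minus FSC-A Low, on the log2(RPKM + 1) scale (horizontal axis) of each tested gene in 6 lists (rows, with the number tested); colour shows the limma call, vertical position within a row is random and black lines are medians. The medians run from -0.997 for the other Jak and Stat genes to -0.048 for the Pim substrates, and only the cytokine receptors and Pim substrates hold genes called higher.

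The genes whose levels over the 7 gated libraries followed the 4 called genes most closely, by Pearson's r of log2(RPKM + 1) among 4096 well expressed genes, were all called lower in FSC-A High themselves. For Pim3 they were Add1 (r = 0.993), Junb (0.991) and Rftn1 (0.987). Socs1 was followed by Mlxip (0.982), Lamp1 (0.981) and Zfp771 (0.977), Sh2b3 by Tmem123 (0.984), Ap3b1 (0.976) and Mob3a (0.965), and Jak2 by Peli1 (0.996) and Cbfb (0.989). These are descriptions over the same 7 libraries, in which the split between the gates alone gives a high r.

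In unfractionated HSCs the files hold values in another unit, from which whole reads were recovered, 21307178 to 30889443 per library, and levels are CPM, counts scaled to the same library total. They were not set against the gated libraries. Pim2 led with 186, 168, 163 and 286 CPM (5737, 3572, 4421 and 8571 reads), and Socs2 followed with 75.2, 182, 146 and 100 CPM. Every library of Pim2 was above every other gene of the 10 except Socs2, whose second library reached into its range. Pim3 stood at 41.6, 11.9, 12.8 and 55.2 CPM, with libraries 1 and 4 more than 3 times as high as libraries 2 and 3. Pim1 stood at 2.64 to 9.34 CPM and Socs1 at 4.83 to 11.3 CPM, with medians of 7.11 and 7.96 CPM, while the lowest median was that of Socs3 at 5.46 CPM. Stat5a stood at 40.6 to 124 CPM, Cish at 25.8 to 79.3 CPM, Jak2 at 23.9 to 59.2 CPM and Sh2b3 at 10.9 to 28.7 CPM, ranges that overlap from gene to gene.

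Socs3 varied most between the unfractionated libraries. It had 165, 119, 3 and 1111 reads, or 5.34, 5.59, 0.110 and 37.1 CPM, while the highest and lowest library of the other 9 genes differed by 1.76-fold (Pim2) to 4.63-fold (Pim3). The library with 1111 reads, replicate 4, was the highest of the 4 for Pim2, Pim3, Socs3, Cish and Stat5a and the lowest for Pim1 and Jak2. In that library 15.2% of reads came from the ribosomal RNA gene Rn45s, beside 3.06% to 5.26% in the other 3, and 11384 genes had a read, beside 12909 to 13368. The part of this in its levels was not tested. Divided by the length of the GENCODE transcript, Pim2 was at 146 to 257 CPM per kilobase, above Socs2 at 33.8 to 81.7 and Pim3 at 4.91 to 22.7, and Pim2 held 89.2% to 95.5% of the summed Pim level per length. The lengths used in the authors' counting are not given, so these values per length are approximate.

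**Figure D5:**
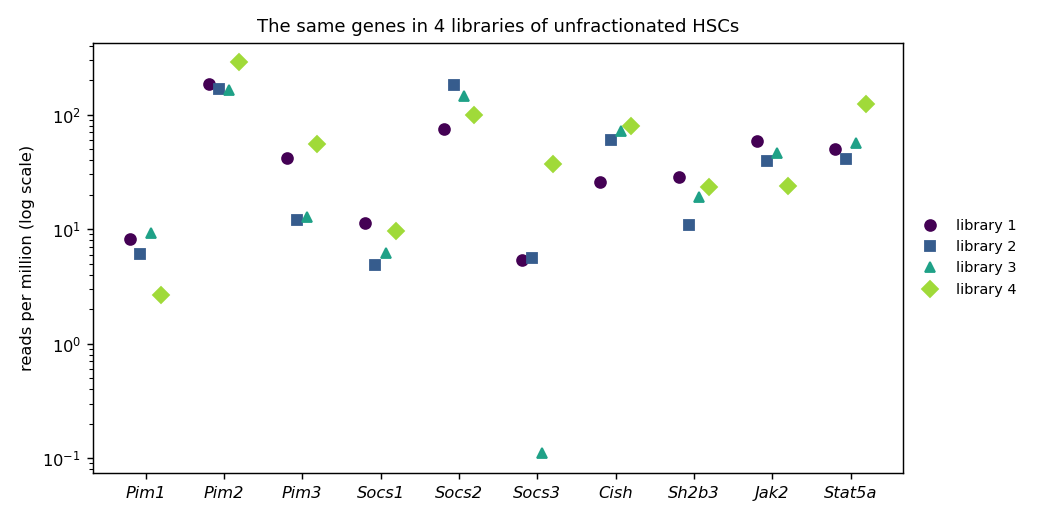
CPM (vertical axis, log scale) of the 10 genes in the 4 libraries of unfractionated HSCs (symbols). Pim2 is highest at 163 to 286, and Socs3 spreads from 0.110 to 37.1.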

How the data were processed

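RNA of 11 libraries was measured by Smart-seq2 sequencing. The deposited gated values were used as RPKM. No label or header names that unit, which was inferred from sums over transcripts of value and length. The deposited unfractionated signal per gene is a count divided by 1 size factor per library, and 100% of values were whole reads within 0.01. STAR, DESeq2 and mm10 are named, without roles, in the submitters' processing notes. The counting's use of strand is not given in the sources used here.

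Of several transcripts of a gene, the one highest on average in the 7 gated libraries was kept. The gates were compared on log2(RPKM + 1) by limma 3.58.1 with an intensity trend (R 4.3.3). Genes needed 1 RPKM or more in 3 or more libraries, and p-values were adjusted over all of them. This step was first tested on simulated data. Named genes were the 10 genes, up to 4 called genes of each pathway list with the smallest p, and the 3 genes closest to each called gene among those with a mean log2 value of at least 4, without predicted genes, Riken clones and pseudogenes. Some genes that this rule names are not reported here. The genes and lists were chosen with earlier results of these data known, and the tests of pairs were added, and their statistic changed, after seeing the data. GENCODE M21 gave length and GC content for 98.5% of tested genes, and the trend was removed with splines of 5 degrees of freedom. Promoters and coordinates came from RefSeq for GRCm38.p6. Alternatives were TMM (edgeR 4.0.16) and 3 other scalings, pseudocounts of 0.5 and 5, other filters, libraries left out, the replicate number as a block, summed transcripts, length and GC, and sample weights. Python 3.11.15 was used.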

Additional observations from a re-analysis of the deposited data

How the results depend on the processing

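Over the alternatives, 3 to 6 of the 10 genes were called lower in FSC-A High and 0 higher. The call of Pim3 (limma adjusted p from 4.63e-05 to 0.0119) and that of Sh2b3 (0.000732 to 0.0344) held in all 19, that of Socs1 in 18 of 19 (0.00272 to 0.0816) and that of Jak2 in 12 of 18 (0.00885 to 0.0733). Scaled to library totals, where the all-gene median was -0.31 in place of -0.044 and 30.02% of calls were higher in place of 57.1%, Pim2 (-0.94) and Stat5a (-0.86, adjusted p = 0.0295) also passed, and Socs2 changed sign to -0.197. With 1 library left out, Socs2 ran from -0.058 (without FSC-A Low replicate 1) to 0.302 and Cish from -0.42 to 0.077 (without FSC-A High replicate 4). Removing the length and GC trend gave 0.058 for Cish and -0.016 for Ifnar2. The cause was not tested. The pathway lists had 22 genes called lower, but 14 after the length and GC trend was removed, 15 with low genes kept and 31 with library totals. Leaving out 1 library gave 17 to 21, with Cbl absent from the fit where that library was from FSC-A Low. The Pim3 share differed by -24.56 percentage points, and by -29.41 to -19.49 with 1 library left out. Jak2, Pim1 and Socs3 could not be fitted with a filter at 5 RPKM. Deviations of same-numbered libraries of the gates had correlations of -0.031, 0.059 and 0.000, within the range of the other pairs (-0.092 to 0.092). The labels do not say what a shared number means, and this check, with 3 such pairs, cannot decide it. With the replicate block, a fit that rests on the 3 numbers present in both gates, 3 of the 10 genes were called, Jak2 was not (adjusted p = 0.0731), Cish was at 0.077 and 20 pathway genes were lower. The level of Socs3 in unfractionated replicate 3 rests on 3 reads and is imprecise. That library had 27206879 reads in all, and replicate 2, with 21307178, had 119 reads of Socs3. The cause of the low count was not tested.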

Other observations

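The highest value of a gate came from the same library for many of the 10 genes. The same count was not made over all genes, so it cannot be told whether this is particular to these 10. In FSC-A Low, replicate 3 was the highest for 7 of them (Pim1, Pim2, Pim3, Socs2, Socs3, Cish and Jak2) and replicate 1 for Sh2b3. In FSC-A High, replicate 1 was the highest for 6 (Pim2, Pim3, Socs1, Socs2, Jak2 and Stat5a), while replicate 4 was the lowest for Pim1, Socs1, Socs2 and Cish and the highest for Socs3. Replicate 2 of FSC-A High was the highest for none of the 10.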
